A study of Mus musculus with 18 samples.

Results

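Mice given flour of organically grown potatoes kept under storage conditions (POS) were compared with mice given water (Ctr), in RNA of enterocytes from the jejunum, where most nutrient uptake takes place. The comparison holds 6 of the 18 samples of the series, 3 POS and 3 Ctr mice, taken by their labels. All were male BALB/cOlaHsd mice, 8 weeks old at the start, on standard chow, and each group of 12 was gavaged once a day for 20 days. POS mice received 30 mg of whole tuber flour per day in water, and Ctr mice an equivalent gavage of water alone. POS mice 1 and 2 and all Ctr mice are labelled day 20, while POS mouse 3 is labelled day 27, after 7 days of what its label calls resilience. The source name field of the POS samples writes POC where their titles write POS. The other groups of 3 mice, at the same age, included stored conventional flour (PCS) and organic flour without storage (PO), both at 30 mg per day. The last 2 groups received conventional flour without storage (PC), also at 30 mg per day, and a pesticide mixture at the acceptable daily intake (ADI), without flour. Arrays of all groups enter the fit of all 18 arrays.

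Enterocytes are the absorptive cells of the intestinal lining. They take up lipids, sugars and amino acids, assemble lipoproteins around apolipoproteins such as Apoa1, acetylate and export foreign compounds, and are renewed within days from crypts in which growth factor and Hippo signalling act. Resident T cells lie between them, and cytokines such as GM-CSF act on the immune cells beneath. A scrape holds all of these cells, and in bulk RNA fewer cells of a type and less RNA per cell cannot be told apart. Of 10 enterocyte marker genes looked for, only Apoa1 has a gene name here. Its intensity was 13296, 16287 and 17841 in Ctr mice and 7549, 22713 and 3387 in POS mice, so it was detected in all 6, and no marker of goblet, Paneth, enteroendocrine or tuft cells could be followed.

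Each mouse has its own Cy3 Agilent array, and intensities are linear values from array features. Of 6914 deposited features, 5021 have a value on all 18 arrays and were used. The authors' deposited table names the gene of 51 features, and 43 of those are among the 5021. The other 8, namely Apom, Bop1, Katnal2, Neil3, Plscr1, S100a14, Shank3 and Trbv13-1, lie in rows with a blank PCS cell and were not analysed here. The authors picked the named genes on these same samples, so a direction among them is not independent evidence.

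The POS arrays differed in brightness more than the Ctr arrays did, and POS3 was the dimmest of the 6. The median intensity was 168, 184 and 256 in Ctr mice and 149, 309 and 61 in POS mice. The share of values under 16 was 15.7% on POS3, against 1.61% and 1.21% on POS1 and POS2. The median feature therefore differed between POS and Ctr by -0.53 on the log2 scale, and by 0.088 without POS3, -1.11 without POS2 and -0.56 without POS1. For this reason differences are given as deposited and, for nearly all genes, again with every array centred on its own median, where the median difference was -0.03. A log2 difference of 1 is a 2-fold difference.

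**Figure D1:**
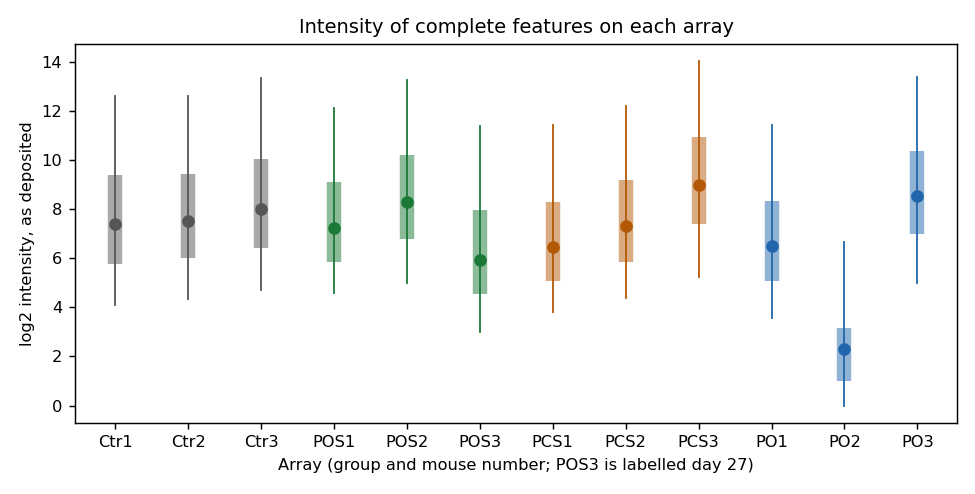
Distribution of log2 intensity over 5021 features on each control (grey), POS (green), PCS (brown) and PO (blue) array: points are medians, thick bars interquartile ranges and thin lines run from percentile 5 to percentile 95. POS3 sits below the other POS and Ctr arrays, and PO2 lies far below all of them.

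In the shape of their profiles the POS arrays were also less alike than the Ctr arrays. Spearman correlations across features were 0.954 to 0.974 among Ctr mice. POS1 and POS3 correlated at 0.935, POS1 and POS2 at 0.900 and POS2 and POS3 at 0.897. Each POS array resembled an array of another group most closely: POS2 had 0.971 with PO3, and POS3 and POS1 had 0.969 and 0.946 with PC3, an array of the conventional flour group. After centring, 19.2%, 14.3% and 23% of features lay over 2-fold from the Ctr mean in POS1, POS2 and POS3. Each Ctr mouse set against the mean of the other 2 had 5.1%, 10.6% and 7.33%. The deviations of POS1 and POS3 from the Ctr mean correlated at 0.68 across features, those of POS1 and POS2 at 0.259 and those of POS2 and POS3 at 0.354. The day 27 mouse therefore lay nearer to POS1 than POS2 did.

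No feature passed the test of POS against Ctr. The limma fit of group means over all 18 arrays gave 0 of 5021 features at a Benjamini-Hochberg adjusted p under 0.05, with a smallest adjusted p of 0.999. At an unadjusted p under 0.05 there were 11 features higher in POS (0.219%) and 6 lower (0.119%), and 0 of the 43 named genes were among them. Centring left the count at 0, with a smallest adjusted p of 0.797, and 146 features were higher (2.91%) and 91 lower (1.81%) at an unadjusted p under 0.05. Plcb4 was the only named gene among those. In a fit of the POS and Ctr arrays alone 11 features passed, 4 higher (0.0797%) and 7 lower (0.139%), and none was a named gene. Its unadjusted p was under 0.05 for 4 higher named genes, Aebp2, Noc4l, Plcb4 and Tead1, and for Chd4 as lower, beside 1.75% and 2.09% of all features. That fit assigned the same standard error, 0.824, to every feature, and it called 0 with centred arrays, where the smallest adjusted p was 0.14. The limma fit of all 18 arrays takes its spread from every group, including the PO2 array with a median intensity of 5. Without PO2 it also called 0 as deposited, with a smallest adjusted p of 0.962 and 46 features at an unadjusted p under 0.05. Where 8-fold changes were planted in 66 features, the fit of all arrays as deposited called 0% of them. The count of 0 in that fit therefore does not show that no feature changed. The centred fit of all arrays called 95.5% of the 8-fold changes and 50.7% of planted 2-fold changes, with 9 unchanged features also called. For the POS and Ctr arrays alone, 53% of the 8-fold changes were called as deposited and 84.8% centred. Planted 2-fold changes were called there at 1.49% and 20.9%, with 14 and 5 unchanged features also called.

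All 43 named genes had an adjusted p of 0.999 in the limma fit as deposited, and of 0.919 to 0.998 with centred arrays. As deposited, 20 were higher in POS and 23 lower, beside 21.2% and 78.8% of all features. With centred arrays 22 were higher and 21 lower, beside 47.8% and 52.2%. POS and Ctr mice did not overlap as deposited in 2 named genes, Chd4 and H2al2b, both lower in POS, where 1.47% of all features were wholly higher and 4.12% wholly lower. With centred arrays 13 named genes lay wholly higher and 15 wholly lower, against 12.4% and 15.2% of all features. The named genes were chosen for their response in 1 or more groups of this series. Their median difference was -0.41 as deposited and 0.091 centred, against -0.53 and -0.03 over all features.

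**Figure D2:**
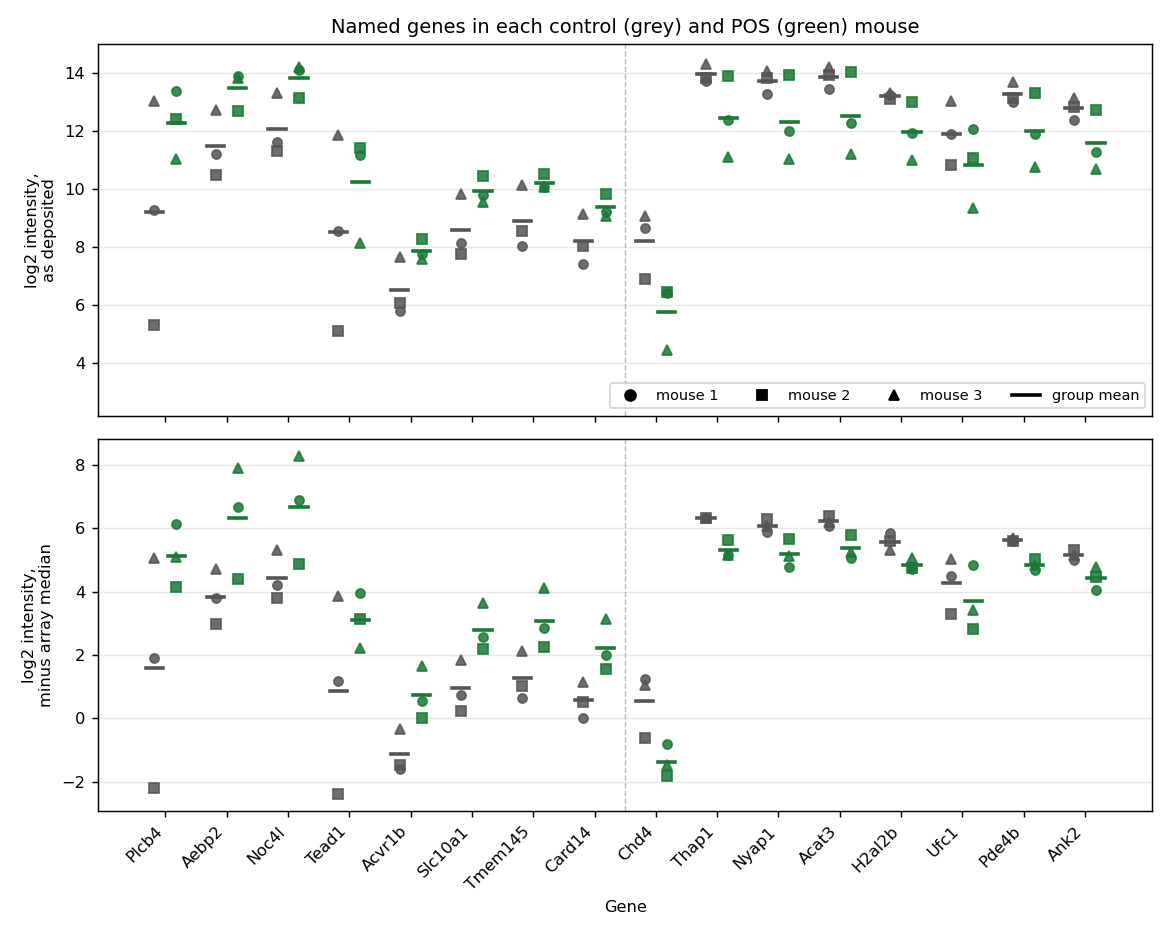
Log2 intensity in each Ctr (grey) and POS (green) mouse for the 8 higher and the 8 lower named genes with the smallest p as deposited, divided by the dashed line; upper panel as deposited, lower panel with each array's median subtracted, horizontal lines for group means. Chd4 is wholly lower in POS in both panels, and Thap1, Acat3 and Pde4b draw together within each group once array medians are removed.

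Aebp2 and Noc4l have the highest fold changes for POS mice in the authors' deposited table. Aebp2 encodes a cofactor of Polycomb repressive complex 2, which methylates histone H3 and silences genes, and Noc4l a nucleolar protein needed to build the small ribosomal subunit. Noc4l had the profile closest to that of Aebp2 among the named genes, with Pearson's r of 0.988 over the log2 intensities of the 18 arrays as deposited, which share groups and array brightness. Since the profiles ran in parallel, the 250 bases before their annotated starts (RefSeq, GRCm38.p6) are shown. The capitals mark GC boxes (GGGCGG on either strand) and, in Noc4l, the cyclic AMP response element TGACGTCA. For Aebp2, with 3 annotated starts, the window with the most GC boxes is shown, chr6:140624659-140624908 on the plus strand. The Noc4l window is chr5:110653383-110653632 on the minus strand.
Aebp2: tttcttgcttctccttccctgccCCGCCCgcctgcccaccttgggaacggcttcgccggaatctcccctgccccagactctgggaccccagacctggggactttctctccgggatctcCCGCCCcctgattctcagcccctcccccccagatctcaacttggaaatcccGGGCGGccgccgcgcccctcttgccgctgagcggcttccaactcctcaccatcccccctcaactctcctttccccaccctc
Noc4l: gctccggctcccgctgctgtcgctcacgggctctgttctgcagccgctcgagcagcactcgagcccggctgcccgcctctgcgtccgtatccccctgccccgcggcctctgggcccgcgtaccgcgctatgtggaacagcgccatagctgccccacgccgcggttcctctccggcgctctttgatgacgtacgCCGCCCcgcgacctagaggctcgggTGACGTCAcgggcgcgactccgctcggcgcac
The Aebp2 window shown holds 3 GC boxes, its other 2 windows hold 0 and 1, and none of the 3 holds TGACGTCA. The Noc4l window holds 1 of each. Of all 32851 promoter windows of this length in the same table, 32.7% hold a GC box and 1.55% hold TGACGTCA on either strand. These matches describe letters only, and no binding was measured.

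Aebp2 (feature 10260) had an intensity of 2358, 1449 and 6758 in Ctr mice and 15133, 6596 and 14558 in POS mice. POS1 and POS3 lay above every Ctr mouse, and POS2 lay just under Ctr3. The log2 mean was 13.47 ± 0.68 (SD, n = 3) in POS and 11.48 ± 1.14 (SD, n = 3) in Ctr, a difference of 1.99 as deposited and 2.49 centred. Centring widened the POS spread from an SD of 0.68 to 1.77, and POS3, the dimmest array, then stood highest. Noc4l (feature 33200) had 3122, 2557 and 10187 in Ctr mice and 17731, 8977 and 18838 in POS mice, again with POS2 lowest of the POS mice and under Ctr3. Its difference was 1.73 as deposited and 2.23 centred, and 1.44 centred without POS3. In the fit of the POS and Ctr arrays alone with centring, the 95% interval was 0.17 to 4.30 for Noc4l and 0.34 to 4.64 for Aebp2, with limma adjusted p of 0.227 and 0.206.

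Chd4, the helicase of the nucleosome remodelling and deacetylase complex NuRD, had the most negative difference of the named genes. Its intensity (feature 15041) was 402, 119 and 534 in Ctr mice and 86, 87 and 22 in POS mice, so that every POS mouse lay under every Ctr mouse. The log2 mean was 5.78 ± 1.14 (SD, n = 3) in POS and 8.20 ± 1.15 (SD, n = 3) in Ctr. The difference was -2.43 as deposited and -1.93 centred, with a standard error of 1.62 and 1.13, and -1.87 centred without POS3. On POS arrays this feature stood between percentiles 19.6 and 35.7 of all features, and on Ctr arrays between percentiles 39.8 and 67.4. Low values were not particular to POS. Chd4 had 58, 4 and 37 in PO mice, the 4 on the dim PO2 array, and 28, 22 and 1409 in PCS mice. POS minus PO was 1.42 as deposited and 0.062 centred, and POS minus PCS -0.80 and -0.35. The authors' deposited table gives 0 for Chd4 in POS mice. Chd3, the paralogous helicase of the same complex, had 11005, 9568 and 14025 in Ctr mice and 5923, 14345 and 2340 in POS mice. Its difference was -0.96 as deposited, and -0.47 centred, where the groups did not overlap.

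Thap1, a zinc finger transcription factor, was among the lower genes on both scales. It had 13532, 14696 and 20488 in Ctr mice and 5349, 15407 and 2193 in POS mice, with POS2 inside the Ctr range. Centred values were nearly the same in the Ctr mice, with an SD of 0.006, and all 3 POS mice then lay lower, with a 95% interval of -1.52 to -0.48 for the difference in the centred fit of both groups alone. The difference was -1.50 as deposited. H2al2b, a histone H2A variant known from testis, had 9608, 8877 and 10100 in Ctr mice and 3934, 8268 and 2038 in POS mice. It lay lower in every POS mouse on both scales, by -1.23 as deposited and -0.74 centred, as did 2.81% of all features.

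In second messenger signalling, Plcb4 had the highest difference of the named genes and one of the widest spreads. Plcb4 encodes a phospholipase C that releases inositol trisphosphate and diacylglycerol. Its intensity (feature 7153) was 630, 40 and 8485 in Ctr mice and 10549, 5426 and 2100 in POS mice. On the log2 scale the SD was 3.86 in Ctr and 1.17 in POS, and Ctr3 lay among the POS mice. The difference was 3.04 as deposited and 3.54 centred, and with single mice left out it ranged from 1.09 to 5.28 over both scales. Prkar1a, which holds protein kinase A inactive until cyclic AMP binds, had 2457, 1436 and 6628 in Ctr mice and 7709, 2012 and 1651 in POS mice. Its difference of 0.044 as deposited and 0.54 centred was under the spread within either group. Pde4b, which degrades cyclic AMP, had 8233, 8955 and 13241 in Ctr mice and 3845, 10107 and 1757 in POS mice. It was lower by -1.28 as deposited and -0.78 centred, and without overlap once centred.

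Among receptors and growth factor pathways, the activin receptor gene Acvr1b was higher, with a POS range that was narrow only as deposited. Its log2 SD in POS was 0.36 as deposited and 0.84 centred, against 1.01 and 0.69 in Ctr. Its values (feature 21618) were 56, 67 and 204 in Ctr mice and 217, 310 and 191 in POS mice. POS3 lay just under Ctr3 as deposited, and after centring all POS mice lay above all Ctr mice. The difference was 1.36 as deposited and 1.85 centred, with a 95% interval of 0.62 to 3.09 in the centred fit of both groups alone. Tead1, the DNA-binding partner of the Hippo pathway coactivators, had 379, 35 and 3701 in Ctr mice and 2315, 2721 and 284 in POS mice. It was lowest in Ctr2 and highest in Ctr3, and among the named genes it had the profile closest to that of Plcb4, with r of 0.942 over the 18 arrays as deposited. Its difference was 1.73 as deposited and 2.23 centred, and 0.036 as deposited without Ctr2. Of the ligands of this family, Bmp7 had 7363, 8475 and 10021 in Ctr mice and 3396, 8081 and 1981 in POS mice. Bmp7 differed by -1.17 as deposited and -0.68 centred, and Gdf1 by -1.04 and -0.54.

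Both genes of UFMylation, the attachment of the small modifier UFM1 to proteins that serves endoplasmic reticulum homeostasis, overlapped in part between groups. Ufm1, the modifier, had 4578, 1802 and 11369 in Ctr mice and 10506, 3684 and 1235 in POS mice. Ufc1, its conjugating enzyme, had 3783, 1819 and 8321 in Ctr mice and 4305, 2180 and 658 in POS mice. In each gene the day 27 mouse was lowest and Ctr3 highest as deposited. Ufm1 differed by -0.32 as deposited and 0.17 centred, a change of sign, and Ufc1 by -1.07 and -0.57.

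Both analysed genes of RNA processing and ribosome assembly, Noc4l and U2af2, were higher on both scales, as were 2 of the 3 of replication and repair. Over all features 21.2% were higher as deposited and 47.8% centred. U2af2, a splicing factor that recognises the 3′ splice site, had 133, 239 and 618 in Ctr mice and 555, 882 and 484 in POS mice. Orc5, a subunit of the origin recognition complex, had 329, 307 and 1091 in Ctr mice and 909, 1607 and 783 in POS mice. The centred differences were 1.70 for U2af2 and 1.62 for Orc5, with no overlap, and 1.20 and 1.13 as deposited. Recql4, a DNA helicase of replication and repair, had 1020, 390 and 746 in Ctr mice and 1374, 3830 and 367 in POS mice. It was higher in POS1 and POS2 only, by 0.90 over all 3 as deposited and 1.40 centred. Alkbh2, which repairs alkylated bases, was at -1.09 as deposited and -0.60 centred. Tti2, a chaperone partner of the DNA damage kinases that belongs to none of these lists, was at -0.56 and -0.058. Bmf, a BH3-only activator of apoptosis, had 10129, 10058 and 15870 in Ctr mice and 5294, 11338 and 2369 in POS mice. It was lower by -1.17 as deposited and -0.67 centred.

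Of the 4 immune genes analysed, 3 were higher and 1 lower on both scales. Over all features 21.2% were higher as deposited and 47.8% centred. Csf2, which encodes GM-CSF, had 320, 353 and 1056 in Ctr mice and 905, 1552 and 662 in POS mice. Card14, a scaffold for NF-kappaB activation in epithelial cells, had 171, 266 and 564 in Ctr mice and 592, 919 and 535 in POS mice. Cd2, an adhesion molecule of T cells, had 530, 445 and 970 in Ctr mice and 777, 1344 and 605 in POS mice. In each of these, Ctr3 lay within the POS range as deposited, and the groups parted after centring. The centred differences were 1.49, 1.67 and 0.99, and the deposited ones 0.99, 1.17 and 0.49. Cd2 was the only T cell marker that could be tested, so the part of T cell number in these values was not tested. Once centred, Csf2, Card14 and Cd2 were highest in Ctr3 among Ctr mice and in POS3 among POS mice. The same held for Aebp2, Noc4l, Acvr1b, Cadm2, Orc5, Slc10a1, Tmem145, Rasgef1a and U2af2, which stand under other roles below and above. Among genes lower in POS it also held for Bmf, Sv2b and H2-K2. Genes of different roles may therefore not be separate results. As deposited, the lower genes Thap1, Acat3, Nyap1, Pde4b, Bmf, Bmp7, Ank2, H2al2b, Glcci1, Nat2 and Alkbh2 shared the same order of POS mice. POS2 was highest and POS3 lowest, as in array brightness. Each stood at percentile 90.4 or above on every Ctr and POS array. They may not be separate results either. H2-K2, a class I histocompatibility locus whose transcript record here is non-coding, was lower by -1.02 as deposited and -0.53 centred.

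Genes of lipid, bile acid and foreign compound handling were divided. Slc10a1, a sodium-dependent bile acid carrier best known from liver, had 283, 217 and 918 in Ctr mice and 882, 1406 and 760 in POS mice. It was higher by 1.35 as deposited and 1.85 centred, without overlap once centred. Lyplal1, a lysophospholipase-like enzyme, had 810, 822 and 1203 in Ctr mice and 1378, 4332 and 443 in POS mice, and Osbpl9, an oxysterol-binding protein, had 521, 290 and 1282 against 889, 1903 and 288. Both were above all Ctr mice in POS2, and both had their lowest POS value on POS3. Their differences were 0.57 and 0.44 as deposited and 1.07 and 0.94 centred. Uhrf1bp1, a lipid transfer protein, had 65, 427 and 118 in Ctr mice and 118, 147 and 81 in POS mice, and its difference turned from -0.41 as deposited to 0.091 centred. Acat3, a cytosolic acetyl-CoA acetyltransferase, had 11253, 15502 and 18972 in Ctr mice and 5014, 16908 and 2347 in POS mice. It was lower by -1.35 as deposited and -0.85 centred. Nat2, an arylamine acetyltransferase, differed by -1.02 and -0.52, and Apoa1 by -0.91 and -0.41.

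Both analysed genes of the neuronal list, Nyap1 and Sv2b, were lower on both scales. Over all features 78.8% were lower as deposited and 52.2% centred. Nyap1, an adaptor of phosphoinositide 3-kinase known from neurons, had 9847, 14434 and 17283 in Ctr mice and 4076, 15505 and 2125 in POS mice. It was lower by -1.40 as deposited and -0.90 centred. Sv2b, a synaptic vesicle protein, differed by -0.70 and -0.20. Outside that list, Ank2, an ankyrin that links channels to the cytoskeleton, had 5357, 7283 and 9059 against 2493, 6850 and 1671, with differences of -1.21 and -0.71. Kcnd1, a voltage-gated potassium channel, had 939, 909 and 1210 in Ctr mice and 1774, 4784 and 460 in POS mice. Its difference was 0.64 as deposited and 1.14 centred. Cadm2, a neuronal cell adhesion molecule, had 294, 362 and 1055 in Ctr mice and 970, 1597 and 704 in POS mice, higher by 1.09 and 1.59.

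Among the remaining genes, Tmem145, a transmembrane protein, had 263, 374 and 1129 in Ctr mice and 1079, 1459 and 1067 in POS mice. Rasgef1a, an exchange factor for Ras-family proteins, had 217, 244 and 643 in Ctr mice and 589, 1087 and 491 in POS mice. Both parted from the Ctr mice after centring, by 1.80 and 1.57, with differences of 1.31 and 1.07 as deposited. Crk, a signalling adaptor, had 1069, 1084 and 1993 in Ctr mice and 1455, 4898 and 570 in POS mice, a difference of 0.27 as deposited and 0.77 centred. Glcci1, Septin8 and Marveld1 lay between -1.22 and -0.95 as deposited, and between -0.72 and -0.45 centred.

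**Figure D3:**
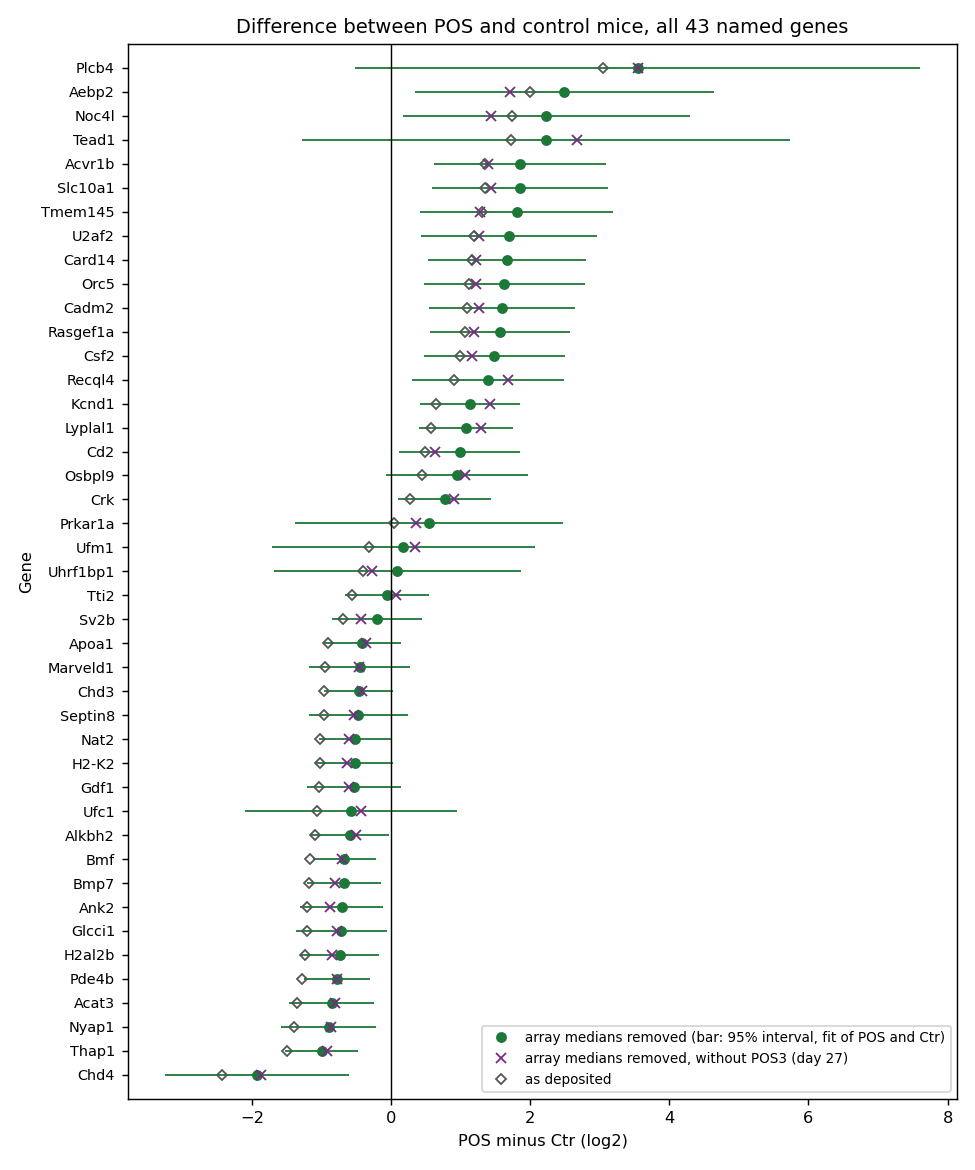
POS minus Ctr on the log2 scale for all 43 named genes: circles with each array's median removed, bars for 95% intervals from a fit of the 6 POS and Ctr arrays, crosses for the same without POS3, open diamonds as deposited. Diamonds lie to the left of the circles in every gene, and the crosses stay on the circle's side of 0 in all but Tti2 and Uhrf1bp1.

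The centred fit restricted to the 6 arrays showed how far these genes sat from 0 against the spread within both groups. At an unadjusted p under 0.05, 16 named genes were higher and 12 lower, against 9.82% and 10.1% of all features. Their limma adjusted p ran from 0.14 to 0.245, so 0 of the 28 passed. Without POS3 there were 13 higher and 11 lower, against 7.71% and 9.46% of all features. Aebp2, Noc4l and Cd2 missed that p without POS3, with centred differences of 1.70, 1.44 and 0.63, as did Alkbh2 at -0.51 and Glcci1 at -0.78. H2-K2 met it, at -0.64.

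Values with and without the day 27 mouse were set side by side. Without POS3 as deposited, 22 named genes were higher and 21 lower, where 56.3% of all features were higher and 43.7% lower. With centring, 22 were higher and 21 lower with and without POS3 (48.4% and 51.6% of all features without it), and Uhrf1bp1 and Tti2 were the genes that exchanged sides. The centred median over the 20 tested genes that the authors list for POS was 1.61 with POS3 and 1.27 without, and the median as deposited was 1.11 and 1.38. For the 23 named genes they do not list, the centred median was -0.57 and -0.60, and that as deposited -1.07 and -0.50.

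The header of the authors' deposited table sets a rule by which a change counts above 2 or below 0.5 times the control mean. Applied to the intensities, 25 features (0.498%) lay above it in every POS mouse and 43 (0.856%) below. Chd4 was the only named gene among them, below it in each of 12 settings of the rule. With centred arrays 80 features (1.59%) lay above and 47 (0.936%) below, and Acvr1b, Rasgef1a and Slc10a1 joined as higher. Quantile normalisation gave 49 above (0.976%) and 49 below (0.976%). Without POS3 the counts were 76 (1.51%) and 43 (0.856%) as deposited and 111 (2.21%) and 98 (1.95%) centred. POS2 and Ctr3 also decided these counts. Without POS2, 1091 features (21.7%) lay below, 17 of them named genes, and without Ctr3, 197 (3.92%) lay above, 11 of them named genes.

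The authors' deposited table lists 22 genes for POS mice, all of them higher. In that table Aebp2 has log2 fold changes of 2.59, 2.32 and 2.53 in POS mice 1 to 3, and Noc4l has 1.94, 2.04 and 2.03. The next by their mean is Tmem145 in the authors' deposited table, with 0.95, 1.02 and 0.89. The 3 Uhrf1bp1 cells of the authors' deposited table are whole-number fractions with the denominator 410 (354, 441 and 543), and were read as linear ratios, which average 0.0995 in log2 units. The numerators of POS1 and POS2 are whole multiples of the deposited intensities, 118 and 147. That of POS3 is not a multiple of its deposited intensity, 81. Of the other 21 genes in the authors' deposited table, 18 have all 3 POS cells within 2-fold and only Aebp2 and Noc4l have all 3 outside it. That is 56 of 63 cells inside the limit at which, by the header of the authors' deposited table, values are set to 0.

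The intensities gave the same sign as the authors' cells in POS1 and POS2 but not in POS3. Of 19 genes in complete rows, Uhrf1bp1 left out, 19 had the sign of the authors' deposited table in POS1, 19 in POS2 and 11 in POS3. With centred arrays 18 agreed in sign in POS3, the exception being Tead1. The median intensity ratio of the 19 genes was 0.77, 1.46 and 0.30 on the log2 scale in POS1, POS2 and POS3, against 0.77, 0.69 and 0.73 in the authors' deposited table. Of 57 cells, 1 equalled the intensity ratio within 0.001, Lyplal1 in POS1 at 0.54 in the authors' deposited table. In Aebp2, Noc4l, Cd2 and Card14, the authors' cells stood off the intensity ratios by the same amount in POS1 and POS3, but not in POS2. For Aebp2 the authors' deposited table has 2.5852 in POS1 and 2.5294 in POS3, against intensity ratios of 2.1034 and 2.0475. The scaling of the POS cells is not stated in the labels or headers.

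**Figure D4:**
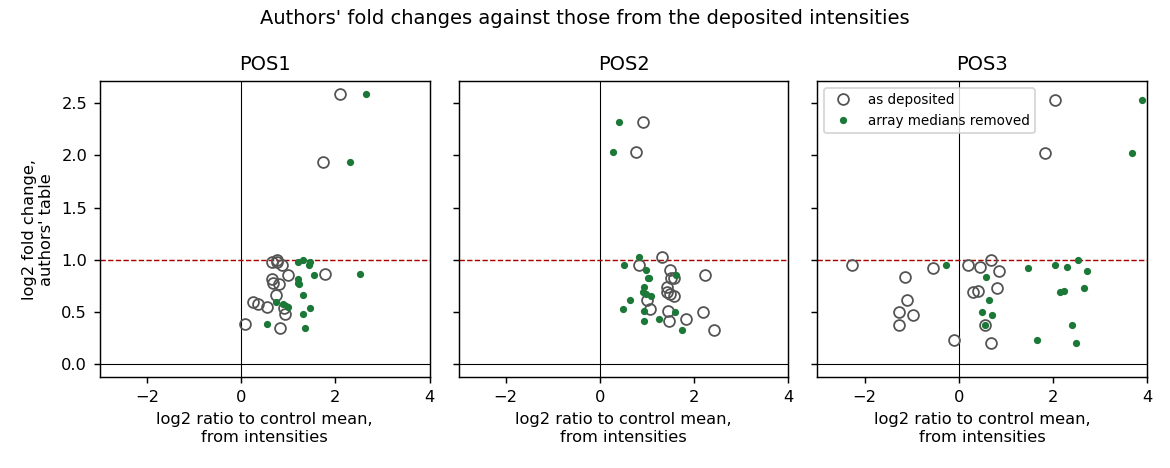
Log2 fold change of 19 genes in the authors' deposited table (vertical) against the log2 ratio of the same mouse's intensity to the Ctr mean (horizontal), as deposited (open circles) and with array medians removed (green dots), one panel per POS mouse. The dashed line marks 2-fold; Aebp2 and Noc4l stand above it in all panels, and 8 open circles of POS3 lie left of 0.

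Stored organic flour was also set against its nearest groups. POS against PCS, both stored, gave 0 of 5021 features past the limma threshold, with 0 features higher (0%) and 2 lower (0.0398%) at an unadjusted p under 0.05. Centring gave 9 higher (0.179%) and 6 lower (0.119%). The differences of the 43 named genes ranged from -2.40 for Uhrf1bp1 to 0.38 for Aebp2 as deposited, around a median of -0.36, with 2 higher and 41 lower, where the median of all features was -0.33. Centring turned the direction, with 25 higher and 18 lower and a median of 0.096, against 0.12 over all features. POS against PO, the organic flours with and without storage, also gave 0, with 71 features higher (1.41%) and 0 lower (0%) at an unadjusted p under 0.05. These included Plcb4, Prkar1a, Tead1, Ufc1 and Ufm1. With centred arrays 378 were higher (7.53%) and 188 lower (3.74%), with Plcb4, Tead1 and Osbpl9 among the higher ones. The largest difference among the 43 named genes, in Plcb4, was 4.85 as deposited and 3.49 centred, with 339, 29 and 510 in PO mice, and 3.57 and 3.94 without PO2. The PO2 array had a median intensity of 5 and 84.2% of its values under 16. Without it the median over all features turned from 1.54 to -0.35 as deposited, and from 0.18 to 0.023 centred. Of the named genes, 42 were higher in POS as deposited with PO2, and 9 without it. The features at an unadjusted p under 0.05 as deposited numbered 19 without PO2, 180 without PO1 and 2732 without PO3.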

How the data were processed

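The authors measured enterocyte RNA on 1-colour Agilent arrays and read them with Agilent Feature Extraction, per the submitters' processing notes. Neither labels nor headers name its version, the background step or a genome build. Intensity was deposited by the authors as integers, linear and at most 65501, and array medians were left unequal. Their second table gives, per the file headers, log2 fold changes of single mice, with values between 0.5 and 2 set to 0. Gene names come from it, and all 51 symbols match the RefSeq table of GRCm38.p6.

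Rows blank in any of 18 columns (1893 of 6914) were left out. Values were set to at least 1 and log2 transformed, as deposited or with array medians subtracted. Group means were fitted in limma 3.58.1 (R 4.3.3, eBayes without trend) with Benjamini-Hochberg adjustment over 5021 features at 0.05, and the script was tested on simulated data. Python 3.11.15 made counts and figures. The number of arrays limits precision.

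The members, lists and named genes were chosen with earlier results of these data known. Named with full values are genes past the threshold or, since none passed, the 8 higher and 8 lower genes with the smallest p on each scale and those the authors list for POS. Values given for Prkar1a, Chd3, Ufm1, Bmf and Apoa1 follow their role groups and were added after being seen. Alternatives were other scalings, floors and filters, fits of fewer arrays, a replicate block and single mice left out.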

Additional observations from a re-analysis of the deposited data

How the results depend on the processing

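The limma count for POS against Ctr stayed at 0 with median centring, quantile or 75th percentile scaling, a floor of 16, a filter at a mean log2 of at least 5, trended robust eBayes and the replicate block. It was also 0 in the fit of 17 arrays without PO2. The count was 11 in the fit of the POS and Ctr arrays alone. In that fit it was 252 without POS2, 17 without POS3, 7 without Ctr3 and 5 without Ctr2, and 0 without either other mouse. With all arrays and single mice left out it was 0 as deposited, and 1 centred without POS2 or Ctr2. POS against PCS and POS against PO gave 0 under the same scalings, floors, filters and blocks, in fits of their own 2 groups, and with single mice left out of the fit of all arrays, except for 1 in POS against PO, centred without POS2. The fold rule count of 68 was 127 with centring, 209 with centring and without POS3, and 51 to 1191 with single mice left out. Of the 43 named genes, 35 kept the sign of their difference in 23 settings and 8 did not. Ufm1 turned to 0.174 with centring (all arrays, both groups alone or replicate block), 0.203 with quantile and 0.199 with 75th percentile scaling, and Uhrf1bp1 to 0.091, 0.021 and 0.116. Tti2 turned to 0.037 with quantile scaling. With centring and single mice left out, Ufm1 was 0.347 (POS3), 0.729 (POS2), 0.303 (Ctr1) and 0.655 (Ctr3), Uhrf1bp1 0.093 (POS1), 0.461 (POS2) and 0.911 (Ctr2), Tti2 0.017 (POS1), 0.075 (POS3) and 0.019 (Ctr3), and Prkar1a -0.112 (POS1). As deposited with single mice left out, Crk ranged from -0.537 to 1.014, Kcnd1 from -0.162 to 1.527, Lyplal1 from -0.249 to 1.396, Osbpl9 from -0.193 to 1.169, Prkar1a from -0.65 to 0.65, Tti2 from -1.33 to 0.182, Ufm1 from -1.091 to 0.453 and Uhrf1bp1 from -1.003 to 0.355. The causes were not tested. The unadjusted counts and the fits of 6 arrays without single mice were chosen after seeing the data. The centred deviations of same-numbered POS and Ctr mice from their group means correlated at -0.015, 0.021 and 0.185 for numbers 1 to 3. Mice of different numbers were not set beside them, so these values cannot show whether the numbers pair mice. The replicate block gave 0 calls as deposited (8 features at unadjusted p under 0.05) and centred (221).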

Other observations

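The 11 features that passed in the fit of the POS and Ctr arrays alone have no gene name here, and those quoted were chosen after their values were seen. Feature 12327 had an intensity of 1377, 38662 and 1595 in Ctr mice and 39967, 55708 and 39564 in POS mice, an adjusted p of 0.0359 in limma. The lone high Ctr mouse was Ctr2, at about the POS level. Feature 27069 had 36, 361 and 1502 in Ctr mice and 3700, 1206 and 5407 in POS mice, where POS2 lay under Ctr3. Feature 17186 had 1149, 572 and 9311 in Ctr mice and 263, 451 and 52 in POS mice, every POS mouse lower. It and 4 further features of the 7 lower ones correlated with each other at r of at least 0.988 over the 18 arrays, so these 5 may not be separate measurements. With all 18 arrays in the fit, the limma adjusted p of each of the 11 was 0.999.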
